A study of Sus scrofa with 9 samples.

Results

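The tricarboxylic acid cycle genes described here are 9 genes of mitochondrial cycle enzymes, *CS*, *IDH3A*, *IDH3B*, *IDH3G*, *OGDH*, *DLST*, *SUCLG1*, *SUCLA2* and *FH*. They were taken by gene symbol from a table of 23507 genes, each symbol matched 1 row, and all 9 passed the filter on low counts. Polyadenylated RNA was sequenced from wild-type pig (Sus scrofa) oocytes that had been matured in culture with their cumulus cells to metaphase II (MII), the arrested stage of the mature egg. The heat stress plus L-Asp group was heated at 41.5 °C for 24 h from the germinal vesicle stage with L-Asp in the medium, and was then kept at 38.5 °C until MII. By its usual meaning L-Asp stands for L-aspartic acid, an amino acid. The labels list 0.5, 1.0 and 1.5 mmol/L and do not say which concentration was sequenced. The heat stress group had the same heat without L-Asp, and the control group stayed at 38.5 °C. Each group has 3 libraries. A group was 25 oocytes according to the labels, which leave unsaid how the oocytes were shared out and whether the libraries stem from separate cultures or animals. The p-values therefore measure only the spread between these libraries, which may be technical.

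The cycle runs in the mitochondrial matrix. It condenses acetyl-CoA with oxaloacetate to citrate, oxidises citrate stepwise with release of carbon dioxide, and returns to oxaloacetate, and its NADH and FADH2 feed the respiratory chain. Oocytes depend on oxidative metabolism of pyruvate for meiotic maturation. Aspartate and oxaloacetate are interconverted by aspartate aminotransferases, which ties the added compound to the last metabolite of the cycle. The products of the 9 genes work at citrate formation (*CS*), isocitrate oxidation (*IDH3A*, *IDH3B* and *IDH3G*), 2-oxoglutarate oxidation (*OGDH* and *DLST*), succinyl-CoA cleavage (*SUCLG1* and *SUCLA2*) and fumarate hydration (*FH*).

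Total counts were 41693395 to 49008681 in heat stress plus L-Asp libraries, 46198885 to 53327419 in heat stress libraries and 54965064 to 58361475 in control libraries. The 3 control libraries were nearly alike. The median index of dispersion between pairs, where independent single counts would give 1, was 79.5 to 84.9 for heat stress plus L-Asp, 109 to 119 for heat stress and 5.19 to 5.22 for control. For this reason the control is 1 averaged sample here, with no SD, and their single values are printed only to show the data. CPM are counts scaled to library size and to a further factor per library from TMM normalisation. The 10 oocyte markers, among them *BMP15* and *ZP3*, summed to 18190 to 20930 CPM with L-Asp, 14780 to 19020 CPM after heat stress and 29620 to 29890 CPM in control, so the libraries carry the labelled cell type. The 22 cumulus and granulosa markers in the table, of 27 listed, summed to 1290 to 1327, 1309 to 1663 and 1251 to 1293 CPM in the same order of groups. Without the abundant *RGS2* and *VCAN* they summed to 221 to 305, 157 to 276 and 194 to 200 CPM. Of these markers 16 were tested, and 12 had a log2 fold change above 0 for L-Asp against control (median 0.48) as well as for heat stress against control (median 1.43), beside 50.5% and 50.1% of all genes tested. All 6 heated libraries were above control for 6 of the 16 (*VCAN*, *CYP11A1*, *INHA*, *INHBA*, *GATA6* and *GJA1*), beside 7.84% of all genes tested. For heat stress against control edgeR called 0 of them, and DESeq2 gave adjusted p = 0.000363 for *CYP11A1*, 0.0157 for *GJA1* and 0.0333 for *GATA6*. For L-Asp against control DESeq2 gave adjusted p = 0.0244 for *CYP11A1*. *PTX3*, *LHCGR*, *AMH*, *INHBA*, *GATA6* and *EREG* were at 0 in all control libraries, and *PTX3*, *LHCGR*, *AMH* and *NR5A1* in all heat stress libraries. The summed level of 7 theca and stroma markers was at most 12.5 CPM, and that of 5 blood and immune markers at most 5.10 CPM. The 3 endothelial markers summed to 25.9 to 42.5 CPM with L-Asp, 23.6 to 40.6 CPM after heat stress and 31.5 to 37.9 CPM in control. The part of other cell types in the values below was not tested. In such pooled samples, fewer cells of a type and less RNA per cell cannot be told apart, and neither can a shorter poly(A) tail and less RNA.

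Per transcript length, citrate synthase was far above the other 8 genes in every library. The order below uses the authors' FPKM (fragments per length and per library size), which allows genes of unequal length to be set side by side. *CS* averaged 89.3 FPKM with L-Asp, 94.7 FPKM after heat stress and 86.9 FPKM in control, and supplied 67.9% to 79.6% of the summed FPKM of the 9 genes across the 9 libraries. In control only 3.56% of the 15012 tested genes had a higher FPKM than *CS*. *DLST* followed in every group, at 13.0 FPKM with L-Asp, 12.9 FPKM after heat stress and 18.3 FPKM in control. *IDH3A* (10.6, 4.26 and 11.0 FPKM in the same order of groups) came next with L-Asp and in control, ahead of *FH* (5.56, 7.42 and 5.05 FPKM), and after heat stress their order was the other way round. *SUCLG1* averaged 2.18, 3.19 and 2.6 FPKM, and *SUCLA2* 1.32, 1.04 and 1.59 FPKM.

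The lowest levels with L-Asp and in control belonged to *OGDH*, *IDH3B* and *IDH3G*, and after heat stress *SUCLA2* took the place of *IDH3B* among the lowest 3. *OGDH* averaged 0.449 FPKM with L-Asp, 0.212 FPKM after heat stress and 0.255 FPKM in control, and *IDH3B* averaged 0.912, 1.82 and 0.249 FPKM. *IDH3G* was last in all 3 groups, at 0.133, 0.114 and 0.0993 FPKM. In control 84.0% of the tested genes had a higher FPKM than *IDH3G*. Many neighbours in this order did not separate. With L-Asp the ranges of single libraries overlapped between neighbours at every step except *CS* over *DLST* and *FH* over *SUCLG1*. After heat stress they overlapped at every step except *CS* over *DLST*, *DLST* over *FH* and *SUCLA2* over *OGDH*. Between control libraries the only overlapping neighbours were *OGDH* and *IDH3B*.

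**Figure D1:**
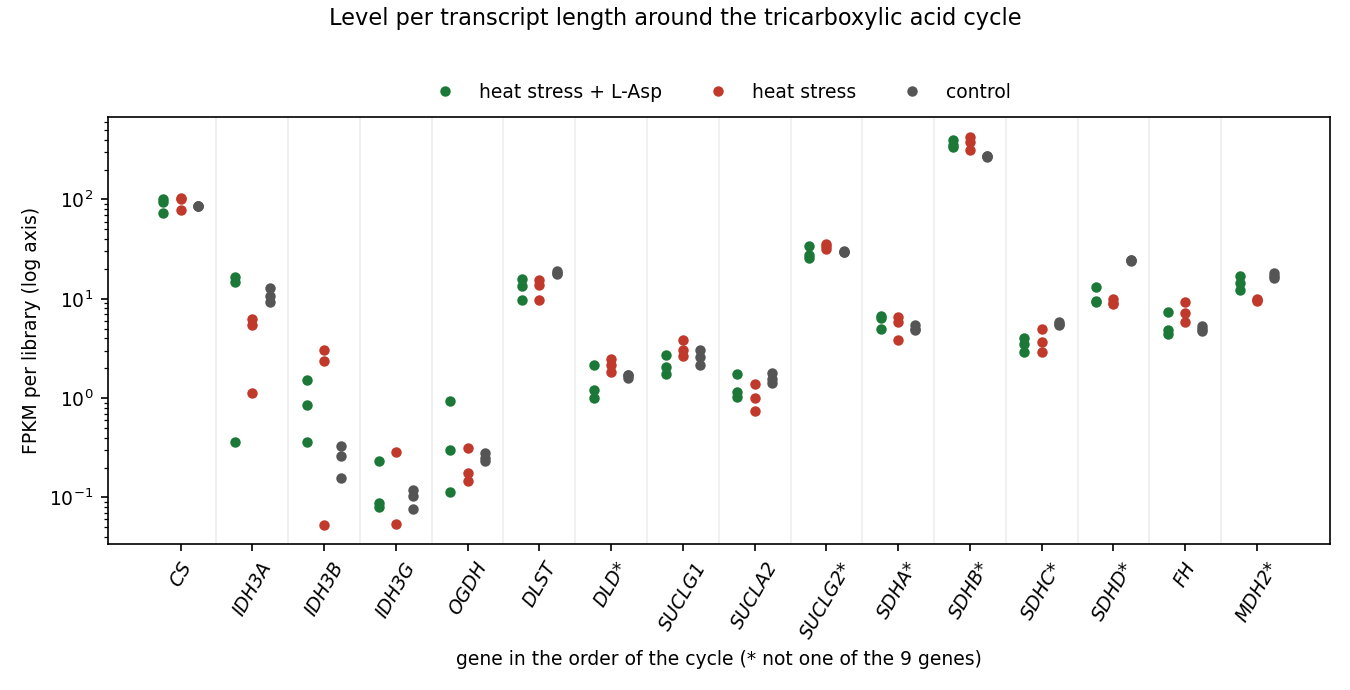
FPKM of the cycle genes in each library on a log axis, in the order of the reactions, with heat stress plus L-Asp left, heat stress in the middle and control right (asterisks mark genes outside the set of 9, and the value of 0 for *IDH3G* in heat stress replicate 1 cannot be drawn). *CS* lies between 73.9 and 103 FPKM in every library, whereas *IDH3G* reaches at most 0.287 FPKM.

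None of the 9 genes passed the test in any of the 3 comparisons. With edgeR's quasi-likelihood test and Benjamini-Hochberg adjustment, 0 of 15012 genes were called in the L-Asp group against heat stress, in the L-Asp group against control, and in heat stress against control (0.0% each), so the lack of a call is shared by the whole table. At an unadjusted p under 0.05 there were 0 of the 9 genes in each comparison, against 6.61% (993), 3.22% (484) and 3.86% (579) of all genes tested. DESeq2 on the same 7 libraries called 183, 64 and 172 genes (1.1%, 0.386% and 1.01%), with 0 of the 9 genes among them. Treating the control libraries as 3 replicates, edgeR called 2, 269 and 433 genes (0.0133%, 1.79% and 2.88%), again with 0 of the 9. The median log2 fold change of the 9 genes was 0.04, -0.08 and -0.05, beside -0.01, 0.01 and 0.00 over all genes tested. The comparisons with control share that sample, and a lone control leaves wide errors, so missing p-values under the threshold do not show that RNA was unchanged.

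**Figure D2:**
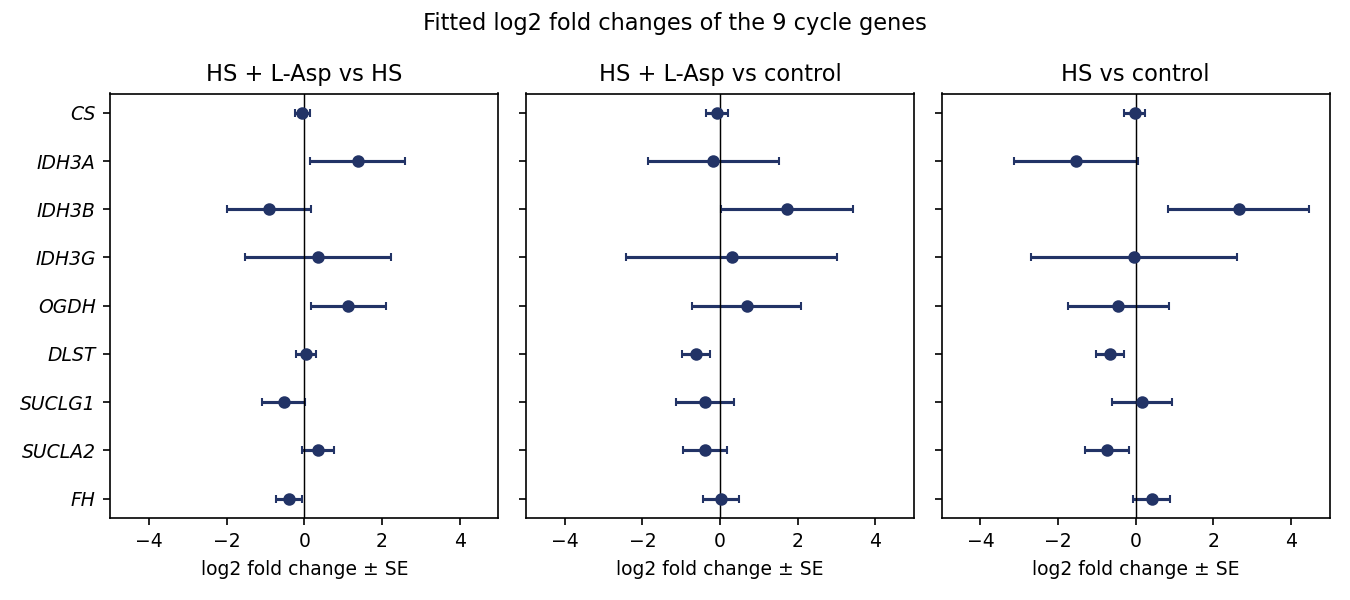
Log2 fold changes of the 9 genes with their standard errors (SE), for the L-Asp group against heat stress (left), the L-Asp group against control (middle) and heat stress against control (right). *CS* has the shortest bars and lies near 0 in each panel, and the IDH3 genes and *OGDH* have the longest bars.

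*CS* encodes citrate synthase, which joins acetyl-CoA and oxaloacetate (ENSSSCG00000035686, chromosome 5, 21666585 to 21700711, minus strand, in the coordinates of the authors' table). It measured 689, 545 and 745 CPM with L-Asp, 773, 678 and 601 CPM after heat stress, and 698, 700 and 697 CPM in the control libraries. The heated libraries lie on either side of the control, and the groups overlap. The means were 660 ± 104 CPM with L-Asp and 684 ± 86.1 CPM after heat stress (SD, n = 3 each), against 698 CPM in control. In the authors' FPKM both heated means lay above control instead (89.3 and 94.7 against 86.9 FPKM). Its log2 fold changes were -0.05 ± 0.20 (SE) for L-Asp against heat stress, -0.08 ± 0.28 for L-Asp against control and -0.03 ± 0.28 for heat stress against control (edgeR, adjusted p = 0.99, 1.0 and 1.0). *COQ10A*, which overlaps *CS* on the opposite strand over 2461 bases, was at most 0.567 CPM in the heated libraries and averaged 1.41 CPM in control.

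**Figure D3:**
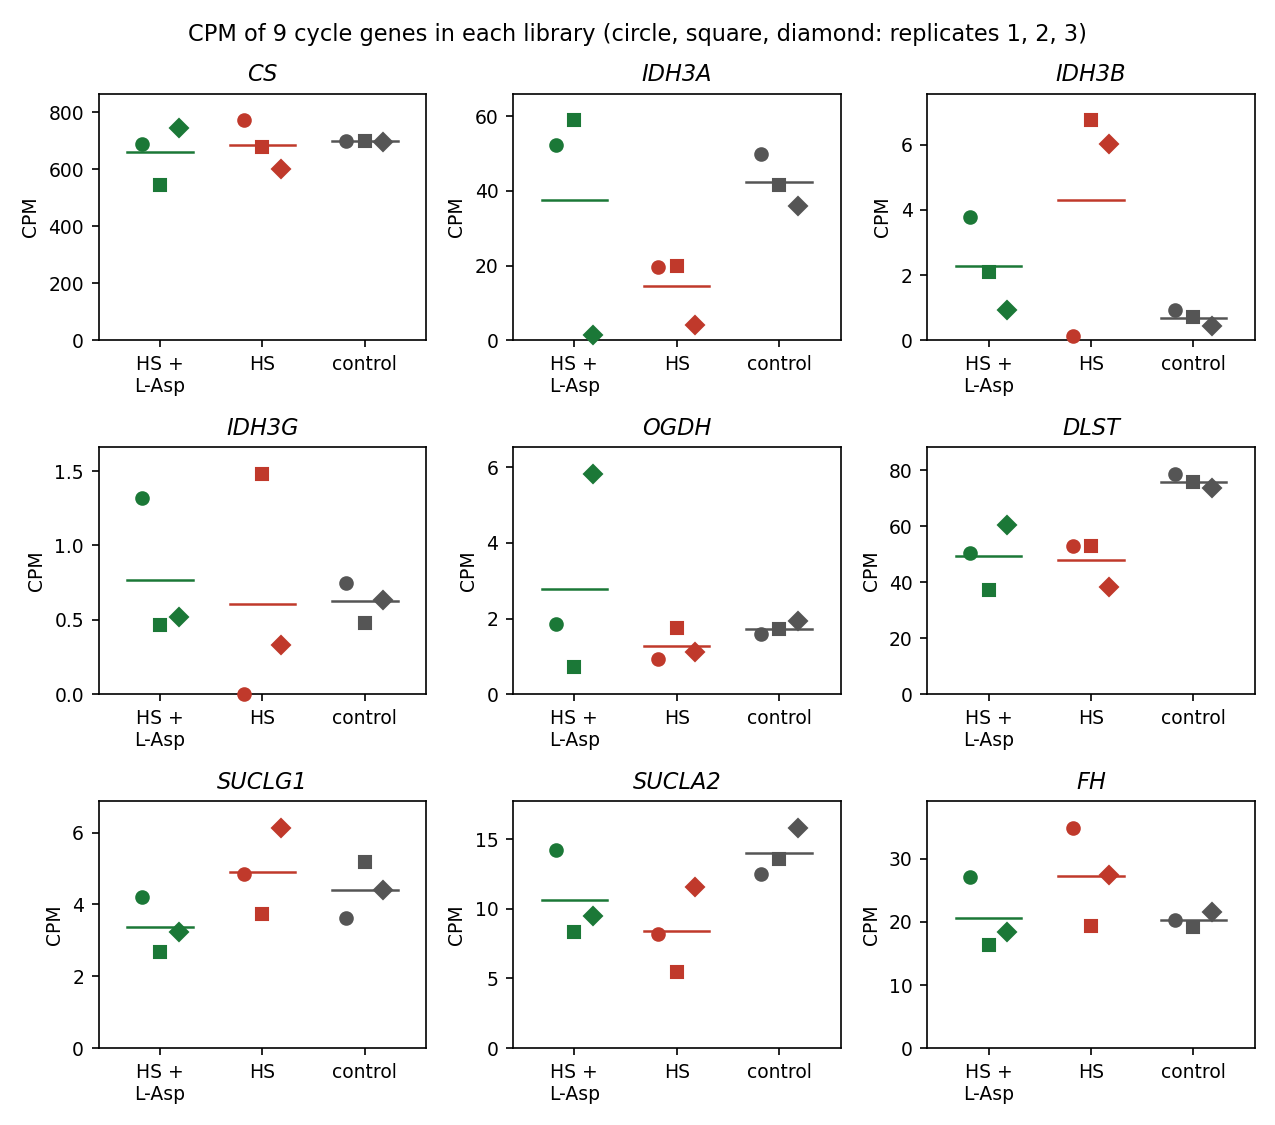
CPM of the 9 genes in each library, with heat stress plus L-Asp left, heat stress (HS) in the middle and control right, and horizontal lines at the group means. The 6 heated libraries lie below the control libraries for *DLST*, and *IDH3A* has its lowest values in replicate 3 of each heated group, at 1.30 CPM with L-Asp and 4.16 CPM after heat stress.

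*IDH3A* had the widest spread of the better expressed members, and that spread ran against the gene lying across its 3′ end. It encodes the catalytic alpha subunit of the NAD-dependent isocitrate dehydrogenase, which makes 2-oxoglutarate (ENSSSCG00000032498, chromosome 7, 47759439 to 47778956, minus strand, 5 annotated transcripts). It measured 52.4, 59.0 and 1.30 CPM with L-Asp, 19.5, 19.9 and 4.16 CPM after heat stress, and 49.9, 41.7 and 35.9 CPM in the control libraries. All heat stress libraries lie below control, whereas the L-Asp libraries lie on either side of it. The highest heated library was 45.3 times the lowest. Only 12 of 6382 tested genes with a mean of at least 10 CPM (0.188%) varied at least that much, a count chosen after the values of *IDH3A* were seen. The log2 fold changes were 1.37 ± 1.23 (SE) for L-Asp against heat stress, -0.17 ± 1.69 for L-Asp against control and -1.54 ± 1.59 for heat stress against control (edgeR, adjusted p = 0.883, 1.0 and 1.0). Without L-Asp replicate 3 the value of L-Asp against heat stress was 1.94 (unadjusted p = 0.00586, adjusted p = 1.0), and that of L-Asp against control was 0.39.

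*ACSBG1*, an acyl-CoA synthetase gene on the opposite strand, overlaps the 3′ end of *IDH3A* over 3100 bases. The library preparation does not mark strand, so reads from the shared stretch cannot be told apart. *ACSBG1* measured 3.81, 0 and 52.6 CPM with L-Asp, 10.9, 17.9 and 58.8 CPM after heat stress, and 6.97, 11.4 and 12.0 CPM in the control libraries. It was thus highest in the 2 libraries in which *IDH3A* was lowest. The sum of both genes was 56.2, 59.0 and 53.9 CPM with L-Asp, 30.4, 37.8 and 63.0 CPM after heat stress, and 56.9, 53.1 and 47.9 CPM in the control libraries. Among the L-Asp libraries the sum stayed within 2.56 CPM (SD, mean 56.4 CPM, n = 3), whereas *IDH3A* alone had an SD of 31.6 CPM. After heat stress it was the other way round, with an SD of 17.1 CPM for the sum (mean 43.8 CPM, n = 3) and 8.99 CPM for *IDH3A* alone. With both genes counted as 1 in the fit, a choice made after seeing the data, the log2 fold changes became 0.37 ± 0.29 (SE), 0.10 ± 0.41 and -0.26 ± 0.40 for the same 3 comparisons (edgeR, adjusted p = 0.843, 1.0 and 1.0). The direction for L-Asp against control changed, and the value for heat stress against control came near 0.

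**Figure D4:**
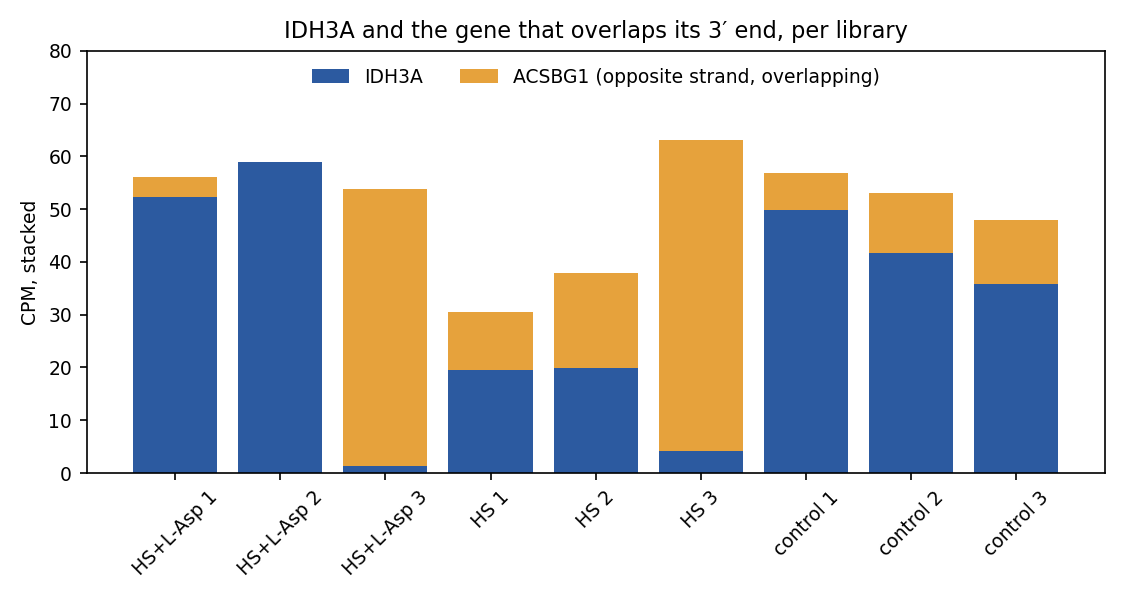
CPM of *IDH3A* (blue) and of the overlapping opposite-strand gene *ACSBG1* (orange), stacked per library, with heat stress plus L-Asp left, heat stress in the middle and control right. In replicate 3 of each heated group nearly the whole column is *ACSBG1*, and the column heights are 53.9 to 59.0 CPM with L-Asp, 30.4 to 63.0 CPM after heat stress and 47.9 to 56.9 CPM in control.

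The regulatory subunits of the same enzyme had low counts. *IDH3B*, the beta subunit (ENSSSCG00000007173, chromosome 17, 32955101 to 32960104, plus strand), measured 3.77, 2.1 and 0.924 CPM with L-Asp, 0.142, 6.76 and 6.01 CPM after heat stress, and 0.911, 0.706 and 0.443 CPM in the control libraries. The raw counts behind these values were 186, 104 and 39 with L-Asp, 7, 347 and 309 after heat stress, and 45, 37 and 23 in control. Every L-Asp library was above the control mean of 0.683 CPM, and heat stress replicate 1 was below it. *IDH3B* had the largest fitted change of the 9 genes for heat stress against control, a log2 fold change of 2.65 ± 1.81 (SE) (edgeR, adjusted p = 1.0). The other 2 values were -0.92 ± 1.08 for L-Asp against heat stress and 1.73 ± 1.71 for L-Asp against control (adjusted p = 0.928 and 1.0). Its 3′ end shares 3 bases with *NOP56*, which measured 98.98 to 231 CPM across the heated libraries.

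*IDH3G*, the gamma subunit (ENSSSCG00000012783, chromosome X, 124528585 to 124537575, minus strand), had counts of 65, 23 and 22 with L-Asp, 0, 76 and 17 after heat stress, and 37, 25 and 33 in control. These are 1.32, 0.465 and 0.521 CPM, 0, 1.48 and 0.331 CPM, and 0.749, 0.477 and 0.635 CPM. The groups overlap throughout. The count of 0 in heat stress replicate 1 allows up to 0.0608 CPM at 3 counts, for counting error only, and more where 1 fragment adds several counts. The standard errors of its log2 fold changes were 1.89 to 2.72, larger than each of the fold changes themselves.

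The balance of the IDH3 subunits, as ratios of FPKM within a library, varied widely between heated libraries. *IDH3A* stood at 9.74, 19.8 and 0.982 times *IDH3B* with L-Asp, at 102, 2.05 and 0.480 times after heat stress, and at 38.9, 41.5 and 59.9 times in the control libraries. The heated libraries thus range from an alpha excess above that of control (heat stress replicate 1, 7 *IDH3B* counts) to more beta than alpha. Beta was higher in heat stress replicate 3 and, narrowly, in L-Asp replicate 3. On the log2 scale the ratio differed by 0.30 between L-Asp and heat stress (2.52 ± 2.26 and 2.22 ± 4.0, SD, n = 3 each, exact permutation test, two-sided, p = 1.0). *IDH3B* stood at 6.60, 10.4 and 4.16 times *IDH3G* with L-Asp, at 10.6 and 43.6 times in heat stress replicates 2 and 3, and at 2.81, 3.39 and 1.50 times in control, with no ratio for heat stress replicate 1 at 0. That log2 difference was -1.70 (n = 3 and 2, exact permutation test, p = 0.1, the smallest these sizes allow, adjusted p = 0.6 over 6 ratios). It was -2.72 without heat stress replicate 2 and -0.68 without heat stress replicate 3. For *IDH3A* to *IDH3G* the log2 ratios were 5.24 ± 2.91 with L-Asp (SD, n = 3) and 4.41 ± 0.04 after heat stress (n = 2), beside 6.80 in control (exact permutation test, p = 0.7, adjusted p = 0.84). The part of the overlap with *ACSBG1* in the ratios that hold *IDH3A* was not tested.

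The 2-oxoglutarate dehydrogenase complex converts 2-oxoglutarate to succinyl-CoA. *OGDH* encodes its thiamine-dependent dehydrogenase (ENSSSCG00000016743, chromosome 18, 50609418 to 50684964, minus strand). It measured 1.84, 0.707 and 5.83 CPM with L-Asp, 0.932, 1.75 and 1.13 CPM after heat stress, and 1.58, 1.72 and 1.92 CPM in the control libraries. L-Asp replicate 3 stands above all other libraries, and the remaining values overlap. The log2 fold changes were 1.13 ± 0.96 (SE), 0.68 ± 1.39 and -0.45 ± 1.31 for L-Asp against heat stress, L-Asp against control and heat stress against control (edgeR, adjusted p = 0.864, 1.0 and 1.0). Without L-Asp replicate 3 the first of these was 0.01 and the value against control was -0.44. *OGDHL*, its paralogue, measured 0.466, 2.24 and 0.545 CPM with L-Asp, 0, 0.487 and 0 CPM after heat stress and 0.702 CPM in control.

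*DLST* was the only member with all 6 heated libraries below control. It encodes the succinyltransferase core of the complex (ENSSSCG00000002374, chromosome 7, 98091124 to 98111568, plus strand, overlapped by no other gene of the table). It measured 50.4, 37.4 and 60.4 CPM with L-Asp, 53.1, 52.8 and 38.2 CPM after heat stress, and 78.8, 75.7 and 73.8 CPM in the control libraries. The heated groups overlap each other and neither reaches the control. Among all genes tested 11.8% had all 6 heated libraries below control and 7.84% had all 6 above, where the 9 genes had 1 and 0. Means were 49.4 ± 11.6 CPM with L-Asp and 48.0 ± 8.51 CPM after heat stress (SD, n = 3 each), against 76.0 CPM in control. The log2 fold changes were 0.04 ± 0.26 (SE) for L-Asp against heat stress, -0.62 ± 0.36 for L-Asp against control and -0.66 ± 0.36 for heat stress against control, and none passed (edgeR, adjusted p = 0.997, 1.0 and 1.0). The unadjusted p of the values against control was 0.108 and 0.089. With the control libraries as 3 replicates the adjusted p was 0.176 and 0.128.

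The other parts of the complex did not have the pattern of *DLST*. *DLD*, the lipoamide dehydrogenase shared with other 2-oxoacid dehydrogenases, measured 21.3, 11.9 and 10.1 CPM with L-Asp, 21.4, 22.2 and 18.8 CPM after heat stress and 18.01 CPM in control. *LAMB1* overlaps *DLD* over 2432 bases on the opposite strand, at 167 to 251 CPM in the heated libraries and 220 CPM in control. The part of this overlap in the *DLD* values was not tested. *MRPS36*, which links the core to the lipoamide dehydrogenase, measured 50.2, 67.4 and 58.1 CPM with L-Asp, 69.7, 66.4 and 79.9 CPM after heat stress and 49.5 CPM in control. All 6 heated libraries of *MRPS36* were above control, beside 7.84% of all genes tested. Per length, *OGDH* reached 0.0116 to 0.0595 of *DLST* with L-Asp, 0.0107 to 0.0203 after heat stress and 0.0122 to 0.0159 in control, and the L-Asp and heat stress ratios differed by 0.66 on the log2 scale (exact permutation test, n = 3 each, p = 0.4, adjusted p = 0.6, with 0.1 the smallest p that 3 against 3 allows). The difference was 0.03 without L-Asp replicate 3, 0.38 without heat stress replicate 1 and 1.21 without L-Asp replicate 2.

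Succinate-CoA ligase joins an alpha subunit, *SUCLG1*, to an ADP-forming beta subunit, *SUCLA2*, or a GDP-forming one, *SUCLG2*. *SUCLG1* (ENSSSCG00000008247, chromosome 3, 60142435 to 60177378, plus strand) measured 4.20, 2.69 and 3.22 CPM with L-Asp, 4.84, 3.72 and 6.13 CPM after heat stress, and 3.62, 5.19 and 4.39 CPM in the control libraries. All L-Asp libraries lie below the control mean of 4.41 CPM, but within the range of the single control libraries for L-Asp replicate 1. The log2 fold changes were -0.54 ± 0.55 (SE) for L-Asp against heat stress, -0.39 ± 0.75 for L-Asp against control and 0.15 ± 0.78 for heat stress against control (edgeR, adjusted p = 0.899, 1.0 and 1.0).

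*SUCLA2* (ENSSSCG00000009405, chromosome 11, 19616498 to 19670660, plus strand) measured 14.2, 8.31 and 9.47 CPM with L-Asp, 8.18, 5.44 and 11.6 CPM after heat stress, and 12.5, 13.6 and 15.8 CPM in the control libraries. All heat stress libraries lie below the control, and 1 L-Asp library lies above the control mean of 14.0 CPM. Its log2 fold changes were 0.34 ± 0.42 (SE) for L-Asp against heat stress, -0.39 ± 0.57 for L-Asp against control and -0.74 ± 0.56 for heat stress against control (edgeR, adjusted p = 0.93, 1.0 and 1.0). *SUCLG2* measured 98.4, 81.4 and 75.5 CPM with L-Asp, 104, 89.5 and 97.2 CPM after heat stress and 95.4 CPM in control. Per length *SUCLA2* was 0.0369 to 0.0521 of *SUCLG2* with L-Asp, 0.0220 to 0.0430 after heat stress and 0.0475 to 0.0591 in control, so the GDP-forming subunit led in every library. The log2 ratio was -4.49 ± 0.25 with L-Asp and -5.06 ± 0.49 after heat stress (SD, n = 3 each, exact permutation test, two-sided, p = 0.2, adjusted p = 0.6), beside -4.25 in control. The alpha subunit against the sum of both beta subunits gave -3.82 ± 0.20 with L-Asp and -3.46 ± 0.30 after heat stress (exact permutation test, n = 3 each, p = 0.3, adjusted p = 0.6), beside -3.62 in control.

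*FH* encodes fumarate hydratase, which makes malate (ENSSSCG00000028178, chromosome 10, 12404176 to 12431824, minus strand, 1 annotated transcript). It measured 27.1, 16.3 and 18.3 CPM with L-Asp, 34.9, 19.3 and 27.5 CPM after heat stress, and 20.2, 19.2 and 21.6 CPM in the control libraries. The 3 groups overlap. The means were 20.6 ± 5.72 CPM with L-Asp and 27.2 ± 7.80 CPM after heat stress (SD, n = 3 each), against 20.4 CPM in control. Its log2 fold changes were -0.40 ± 0.33 (SE) for L-Asp against heat stress, 0.01 ± 0.47 for L-Asp against control and 0.42 ± 0.48 for heat stress against control (edgeR, adjusted p = 0.851, 1.0 and 1.0).

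Counted over the 9 genes, 3 had all heat stress libraries below control (*IDH3A*, *DLST* and *SUCLA2*) and 0 had all above, beside 25.0% and 17.3% of all genes tested. With L-Asp 2 had all libraries below control (*DLST* and *SUCLG1*) and 1 had all above (*IDH3B*), beside 26.0% and 19.0%. No member separated L-Asp from heat stress libraries without overlap, where 5.54% of all genes tested lay wholly below and 6.31% wholly above. These counts are near the background and are no result about the 9 genes.

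Among the cycle enzymes outside the 9 genes that are described here, the lowest p-values for heat stress against control belonged to *SDHD*, *MDH2* and *SDHC*, at the steps between succinate and oxaloacetate. None was called by edgeR in any of the 3 comparisons. *SDHD*, a membrane anchor of succinate dehydrogenase, measured 14.8, 21.0 and 15.01 CPM with L-Asp, 16.02, 12.6 and 14.9 CPM after heat stress and 42.1 CPM in control. The log2 fold change of *SDHD* between heat stress and control was -1.54 ± 0.40 (SE, adjusted p = 0.59 by edgeR, 0.0424 by DESeq2 and 0.00528 by edgeR with 3 control replicates). Its log2 fold change for L-Asp against control was -1.31 ± 0.40 (SE, adjusted p = 0.0154 by edgeR with 3 control replicates). With the averaged control neither edgeR nor DESeq2 called *SDHD* in that comparison. *SDHD* overlaps *DLAT* over 6212 bases on the same strand and *TIMM8B* over 124 bases on the other. *TIMM8B* measured 66.4 to 107 CPM with L-Asp, 87.0 to 132 CPM after heat stress and 63.1 CPM in control. The other anchor, *SDHC*, measured 35.0, 29.0 and 41.1 CPM with L-Asp, 37.4, 44.7 and 30.0 CPM after heat stress and 61.3 CPM in control (edgeR, adjusted p = 1.0 in both comparisons with control).

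The catalytic subunits of succinate dehydrogenase did not share that pattern. *SDHA*, the flavoprotein, measured 38.9, 50.1 and 52.6 CPM with L-Asp, 30.4, 46.6 and 47.0 CPM after heat stress and 43.6 CPM in control. *SDHB*, the iron-sulphur subunit, measured 605, 687 and 596 CPM with L-Asp, 562, 601 and 772 CPM after heat stress and 516 CPM in control. All 6 heated libraries of *SDHB* lay above control, beside 7.84% of all genes tested. *MDH2*, which oxidises malate to oxaloacetate, is overlapped over 660 bases by *STYXL1* on the opposite strand. *STYXL1* measured 3.86 to 13.9 CPM in the heated libraries and 10.4 CPM in control. *MDH2* measured 36.6, 31.3 and 43.8 CPM with L-Asp, 24.3, 22.6 and 26.4 CPM after heat stress and 47.3 CPM in control. It was the only such enzyme described here whose L-Asp libraries all lay above the heat stress libraries, beside 6.31% of all genes tested. The log2 fold change of *MDH2* between these groups was 0.61 ± 0.26 (SE) (edgeR, adjusted p = 0.738, unadjusted p = 0.0387). All 6 heated libraries of *MDH2* lay below control, beside 11.8% of all genes tested. For heat stress against control its log2 fold change was -0.95 ± 0.35 (adjusted p = 1.0 by edgeR, 0.401 by DESeq2 and 0.0204 by edgeR with 3 control replicates), and for L-Asp against control it was -0.35 ± 0.36 (adjusted p = 1.0 by edgeR and by DESeq2).

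**Figure D5:**
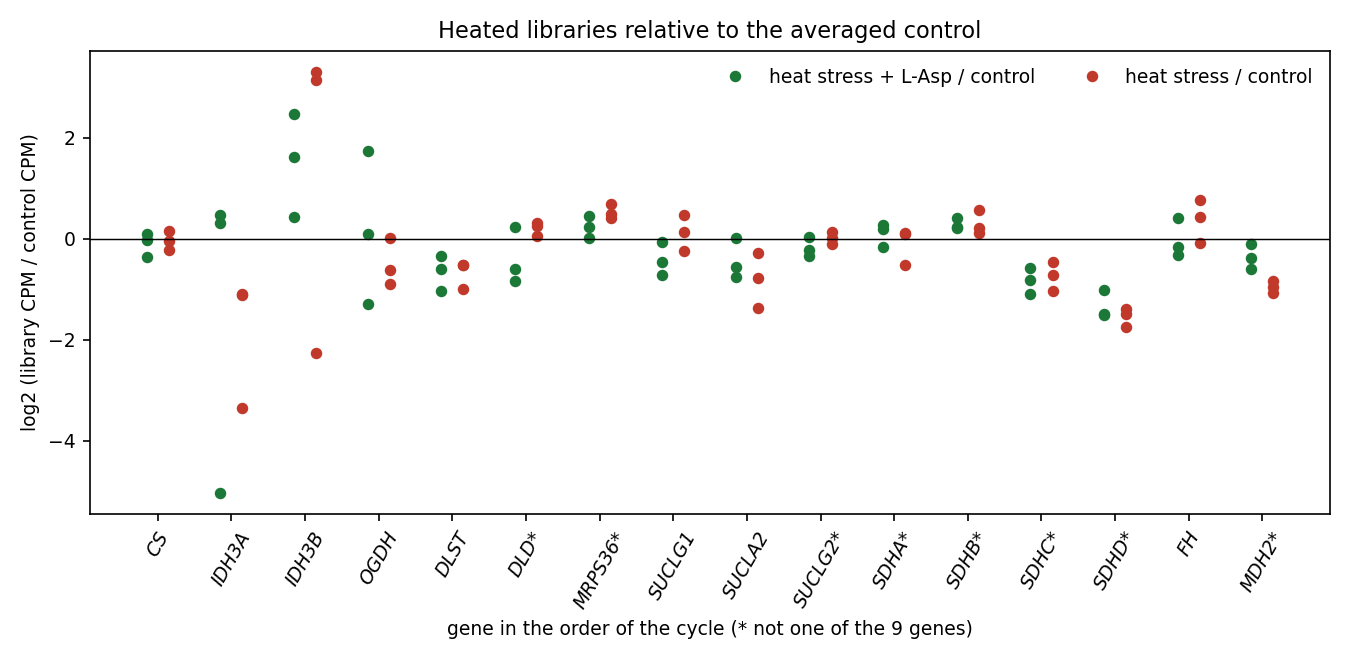
Log2 ratio of each heated library to the averaged control in CPM, with heat stress plus L-Asp left (green) and heat stress right (red), in the order of the reactions (asterisks mark genes outside the set of 9, *IDH3G* and *OGDHL* are left out because libraries at 0 have no log value). *CS* stays near 0, *DLST*, *SDHC*, *SDHD* and *MDH2* lie below 0 in all 6 heated libraries, and *IDH3A* and *IDH3B* scatter most.

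Genes that feed the cycle were called by edgeR in no comparison. Of 12 tested genes of pyruvate entry, 7 lay above 0 for L-Asp against heat stress (median log2 fold change 0.03), 3 for L-Asp against control (median -0.21) and 3 for heat stress against control (median -0.40). Over all genes tested 49.0%, 50.5% and 50.1% lay above 0 in the same comparisons. For heat stress against control the ends of this list, among genes with a mean of at least 10 CPM, were *DLAT*, the acetyltransferase of the pyruvate dehydrogenase complex (79.8 ± 11.9 CPM after heat stress and 62.8 CPM in control), and *PDP2*, a phosphatase that activates the complex (16.2 ± 2.79 and 22.7 CPM). For L-Asp against heat stress they were *PDP2* (20.2 ± 3.72 and 16.2 ± 2.79 CPM, SD, n = 3 each) and the pyruvate carrier subunit *MPC2* (40.4 ± 6.46 and 48.6 ± 10.6 CPM). Among the same genes *MPC2*, at 61.1 CPM in control, was also lowest for L-Asp against control. The log2 fold changes of the pyruvate dehydrogenase kinases *PDK1* and *PDK3* for heat stress against control were 0.24 and -0.47. For L-Asp against heat stress *PDK1* had -0.12 and *PDHX*, a structural protein of the complex, had 0.04.

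Among 13 tested NADP-dependent and cytosolic partner enzymes, 5 lay above 0 for L-Asp against heat stress (median -0.30), 7 for L-Asp against control (median 0.02) and 7 for heat stress against control (median 0.05). The shares over all genes tested were 49.0%, 50.5% and 50.1%. The ends of this list given below are those among its 9 genes with a mean of at least 10 CPM. *IDH1*, the cytosolic NADP-dependent isocitrate dehydrogenase, was at the upper end of both comparisons with control (41.3 ± 10.0 CPM with L-Asp and 52.9 ± 5.18 CPM after heat stress, SD, n = 3 each, and 33.6 CPM in control). *GOT1*, the cytosolic aspartate aminotransferase, was at the lower end of both (7.92 ± 2.47, 10.1 ± 3.44 and 14.7 CPM in the same order). For L-Asp against heat stress the ends were *GOT2*, the mitochondrial aminotransferase (72.8 ± 10.0 and 52.1 ± 9.03 CPM), and *ACLY*, which splits citrate in the cytosol (7.66 ± 2.59 and 14.0 ± 4.61 CPM). *GOT2* had an unadjusted p of 0.0648 (edgeR, adjusted p = 0.738). Its L-Asp libraries all lay above the heat stress libraries, beside 6.31% of all genes tested. Next to these stood *ACO1*, the cytosolic aconitase (log2 fold change -0.42), and *GLUD1*, glutamate dehydrogenase (0.23). For heat stress against control *ME2*, the mitochondrial malic enzyme, had a log2 fold change of -0.39. *LIAS*, which makes the lipoyl group that *DLST* carries, measured 13.7 ± 1.88 CPM with L-Asp, 22.6 ± 4.59 CPM after heat stress and 16.2 CPM in control. Its L-Asp libraries all lay below the heat stress libraries (edgeR, unadjusted p = 0.0448, adjusted p = 0.738), beside 5.54% of all genes tested. *SDHAF4*, a succinate dehydrogenase assembly factor, measured 28.4 ± 10.5, 25.5 ± 4.35 and 27.4 CPM.

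The gene nearest to each member in its profile was sought by the Euclidean distance between log2 CPM values centred on each gene's mean, over 7 libraries. For *DLST* it was *SDHC*, at a distance of 0.30, where a flat profile lay at 0.88. For *CS* it was *HELB* (0.22, flat 0.43), for *FH* *SPAG17* (0.23, flat 0.96), for *SUCLG1* *KDM4C* (0.30, flat 0.95) and for *SUCLA2* *SRP54* (0.33, flat 1.2). The members of uneven or low level had looser neighbours, with *NMRAL1* for *OGDH* (0.92, flat 2.35), *ZNF668* for *IDH3G* (1.02, flat 4.26), *PRMT7* for *IDH3B* (1.51, flat 4.62) and *ACSL6* for *IDH3A* (1.64, flat 5.01). With so many genes and 7 libraries some gene lies near any profile.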

How the data were processed

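Per the file headers, the deposited table gives counts and FPKM for each gene and library, with gene coordinates. The deposited counts were whole numbers and were used as deposited, and the deposited FPKM, made by the authors, served only to set genes of unequal length side by side. Among the tools in the submitters' processing notes are HISAT2 2.2.1, cutadapt 1.9 and StringTie 2.1.6, with no role stated. The genome build and the counting mode were not given in the sources used here. Per the labels' protocols, cDNA was primed with oligo(dT) and amplified by PCR, without strand marking or molecular identifiers, so intervals and limits cover counting error only. In the control libraries 604 to 657 genes had 4 counts, against 318 to 351 with 3. In the heated libraries 263 to 297 genes had 4 counts, against 188 to 241 with 3. In all libraries 1 fragment may thus add several counts. Another 6 per-sample columns of the table were left out.

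Genes were filtered by filterByExpr on the 9 libraries (15012 kept), scaled by TMM and tested with edgeR 4.0.16 (glmQLFit, robust, glmQLFTest) on 7 libraries, with 1 averaged control and 4 residual degrees of freedom. An adjusted p under 0.05 (Benjamini-Hochberg over all genes tested) was a call. The SE was the log2 fold change divided by the root of its F value. The lone control is assumed to vary like the heated groups. DESeq2 1.42.0 and other settings were alternatives. The fits were checked on simulated counts. The genes, lists and the averaging of the control were chosen with earlier results of these data known. Named genes were all 9, the other cycle enzymes, with 1 not reported here, and, per list, the 2 highest and 2 lowest fold changes at a mean of at least 10 CPM. *ACSBG1*, *COQ10A*, *LAMB1*, *NOP56*, *STYXL1* and *TIMM8B* are named for their overlap.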

Additional observations from a re-analysis of the deposited data

How the results depend on the processing

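None of the 9 genes was called under any alternative, in any comparison. Genes called over the whole table, 0 with the settings of the report, were 2, 269 and 433 with 9 libraries, 183, 64 and 172 with DESeq2, 2, 3 and 9 without a filter (L-Asp against heat stress, L-Asp against control, heat stress against control), and 2 for L-Asp against heat stress with the filter recomputed on 7 libraries. Leaving out single libraries gave 0 to 3, 0 to 1 and 0 to 1. Of 483 fold changes of the 9 genes under alternatives, 24 changed sign, and 7 of those did not come from leaving out a library. These were *CS* for heat stress against control with DESeq2 size factors (0.0051) and DESeq2 (0.0046), *IDH3A* for L-Asp against control when counted with *ACSBG1* (0.10), and *FH* for L-Asp against control without mitochondrially encoded genes (-0.0008), with the filter recomputed on 7 libraries (-0.0032), without a filter (-0.0042) and with the replicate block on 9 libraries (-0.0224). The cause was not tested, and most of these values lie near 0.

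Leave-one-out ranges that cross 0 were, for L-Asp against heat stress, -0.15 to 0.0896 for *CS*, -0.29 to 2.2 for *IDH3G* and -0.13 to 0.23 for *DLST*. For L-Asp against control they were -0.18 to 0.0492 for *CS*, -0.65 to 0.39 for *IDH3A*, -0.34 to 0.56 for *IDH3G*, -0.44 to 1.16 for *OGDH* and -0.23 to 0.17 for *FH*. For heat stress against control they were -0.13 to 0.0476 for *CS*, -1.90 to 0.54 for *IDH3G* and -0.0509 to 0.31 for *SUCLG1*. The log2 ratio difference of *IDH3A* to *IDH3B* ranged from -1.33 to 2.53 and that of *IDH3A* to *IDH3G* from -0.39 to 2.43, and the *IDH3A* to *IDH3G* difference was -1.24 from counts per length with a pseudocount of 1. The ranges of the other ratios kept their sign, at -2.72 to -0.68 for *IDH3B* to *IDH3G*, 0.03 to 1.21 for *OGDH* to *DLST*, 0.35 to 0.83 for *SUCLA2* to *SUCLG2*, and -0.48 to -0.19 for *SUCLG1* to both beta subunits.

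Same-numbered heated libraries did not deviate together (correlations across genes of 0.052, -0.021 and 0.01). With 3 libraries per group and a wide spread within groups, this cannot tell whether the numbers mark matched cultures. A replicate block left 0 calls for L-Asp against heat stress, and with 9 libraries it gave 223 for L-Asp against control and 378 for heat stress against control. The lowest counts behind a member were 0 for *IDH3G* and 7 for *IDH3B*, and at the mean count of at least 50 *IDH3G* was not tested. Among heat stress libraries of similar depth the counts were 7, 347 and 309 for *IDH3B* and 0, 76 and 17 for *IDH3G*. This spread is wider than independent single counts would give. It is not particular to these genes, as the median index of dispersion between heat stress libraries was 109 to 119 over all genes compared.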
